A study of Danio rerio with 6 samples.

Results

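Cells handle iron through a short chain of proteins: transferrin receptors take it up, a metal transporter carries it out of the endosome, ferritin stores what is not used, and ferroportin exports the rest. Hepcidin, a small secreted hormone made mainly by the liver in mammals, binds ferroportin and causes its breakdown, so that high hepcidin holds iron inside cells. In blood-forming tissue most iron goes into erythroid precursors for heme, and macrophages return iron from old red cells by opening heme with heme oxygenase. The genes described here are 10 named genes of this chain: hamp, slc40a1, tfr1a, tfr1b, tfr2, fth1a, slc11a2, steap3, hmox1a and ireb2. They were taken by symbol from a table of 15292 genes, and 8 of the 10 had a row. steap3 and ireb2 are not analysed here.

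The tissue was kidney marrow, the adult blood-forming organ of zebrafish, from 3 grna-/- fish and 3 of their grna+/+ siblings, all adult. grna encodes a granulin, a secreted and lysosomal protein. Each library held the messenger RNA of 1 unsorted marrow, with blood cells, kidney tubules, vessels and stroma together. The labels name no allele beyond grna-/- and give no sex or clutch. Levels are in TPM, which allows for the length of a gene and for the depth of a library, so levels of different genes can be set side by side.

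Between 11080875 and 14075134 reads were counted per library. grna itself was at 65.2, 73.98 and 71.92 TPM in grna-/- marrows, against 151.2, 134.7 and 145.6 TPM in grna+/+ marrows, so its level agreed in direction with each label. Differences were tested with limma on log2(TPM + 1) over the 10750 genes that averaged at least 1 TPM, and a Benjamini-Hochberg adjusted p below 0.05 was called; only called genes are said to have risen or fallen. Of these genes 124 (1.15%) were called, 0.660% higher and 0.493% lower in grna-/-. In 24.6% of genes tested the 3 values of one genotype lay wholly above or below the other 3. The log2 fold change was above 0 in 57.5% of genes tested. An exact permutation test of 3 against 3 cannot give a two-sided p below 0.1.

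All 8 iron genes passed the level filter, and hamp was the single one called, beside 1.15% of all genes tested. hamp, the gene for hepcidin, fell 19.5-fold on mean TPM, a fold that ran from 10.6 (without grna+/+ replicate 2) to 63.5 (without grna-/- replicate 3) when 1 library was left out. The exporter gene slc40a1 was the other member without overlap between the genotypes, at 2.03 times the grna+/+ mean, and it did not pass. The genes for uptake (tfr1a, tfr1b, tfr2, slc11a2), for storage (fth1a) and for heme breakdown (hmox1a) overlapped between the genotypes. Members without overlap were thus 2 of 8, beside the 24.6% of all genes. The median log2 fold change of the 8 was 0.27, against 0.065 over all genes tested.

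**Figure D1:**
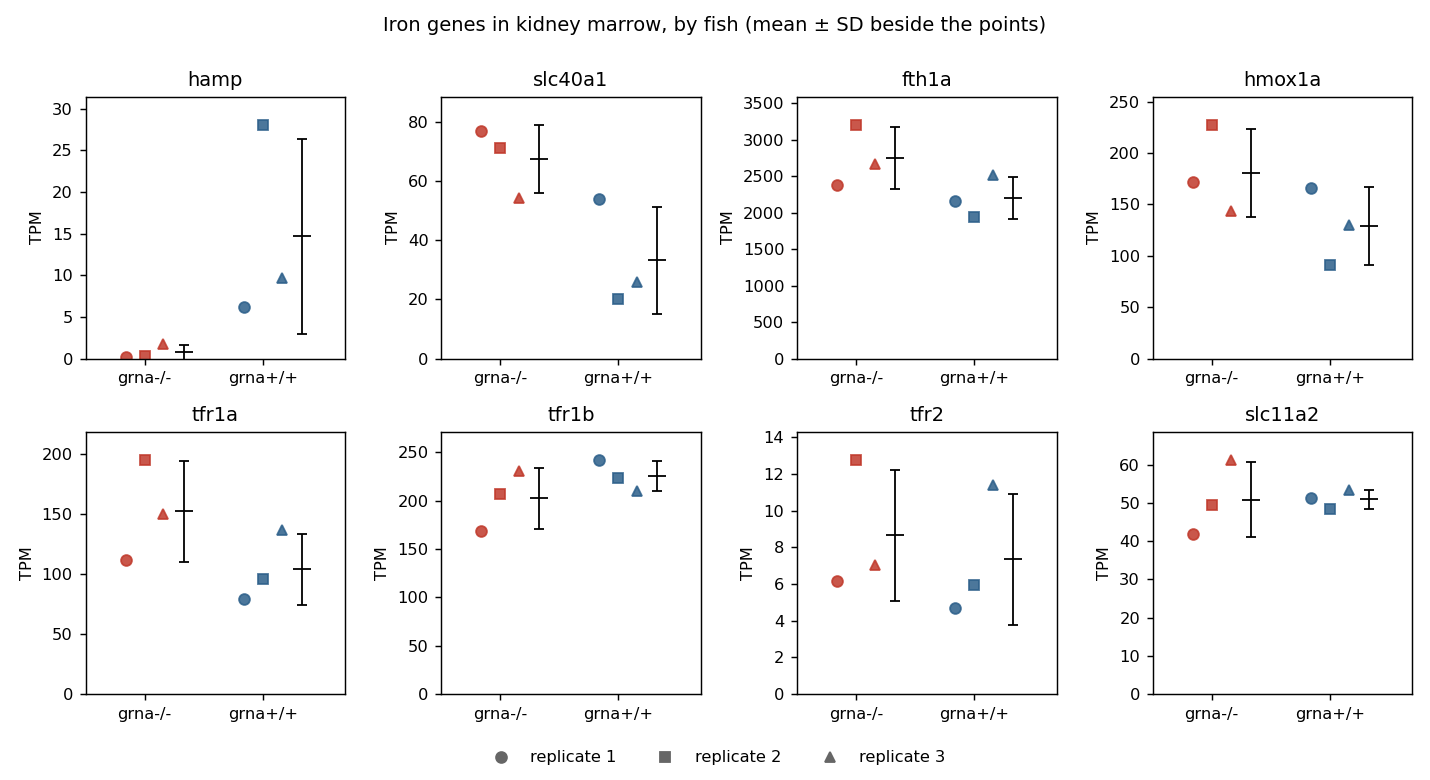
Level of each of the 8 iron genes in TPM in each marrow, grna-/- left of grna+/+, with the mean ± SD (n = 3) in black beside the points. hamp in grna-/- lies below 2 TPM in every fish, slc40a1 does not overlap between the genotypes, and the other 6 genes do.

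The order of levels was alike in both genotypes at its top. fth1a stood far above the rest, at a mean of 2746 TPM in grna-/- marrows and 2202 TPM in grna+/+ marrows. Next came tfr1b, hmox1a and tfr1a, which overlapped with one another in grna-/- marrows; in grna+/+ marrows tfr1b lay above both, and hmox1a and tfr1a overlapped. slc40a1 and slc11a2 followed, between 19.95 and 76.69 TPM over the 6 libraries, and they overlapped in each genotype. tfr2 and hamp were lowest. tfr2 lay above hamp in all grna-/- marrows, while the values of these genes overlapped in grna+/+ marrows.

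hamp was at 0.180, 0.282 and 1.80 TPM in grna-/- marrows, against 6.23, 28.09 and 9.72 TPM in grna+/+ marrows. The groups did not overlap, but the grna+/+ marrows themselves spread widely, with replicate 2 far above the others. The mean was 0.753 ± 0.905 TPM in grna-/- marrows and 14.7 ± 11.7 TPM in grna+/+ marrows (SD, n = 3 each). In limma its log2 fold change was -3.02 (SE 0.535, 95% interval -4.25 to -1.79, adjusted p = 0.0457), with all 3 grna-/- fish below all 3 grna+/+ fish. The exact two-sided permutation p of the 6 values was 0.1.

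These hamp values rest on few reads. Whole reads recovered from the TPM values numbered 1, 2 and 11 in grna-/- marrows, against 41, 164 and 65 in grna+/+ marrows. Per read counted, the 14 reads of the grna-/- group were 5.40% of the level given by the 270 reads of the grna+/+ group, with an exact 95% interval of 2.91% to 9.22% that covers counting error only. hamp passed the level filter through its grna+/+ values. Its call was lost without grna-/- replicate 1, 2 or 3 (adjusted p = 0.137, 0.177 and 0.0781) and without grna+/+ replicate 2 or 3 (0.0586 and 0.131), and it was kept without grna+/+ replicate 1 (0.0401). The log2 fold change ran from -3.45 to -2.44 when 1 library was left out.

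**Figure D2:**
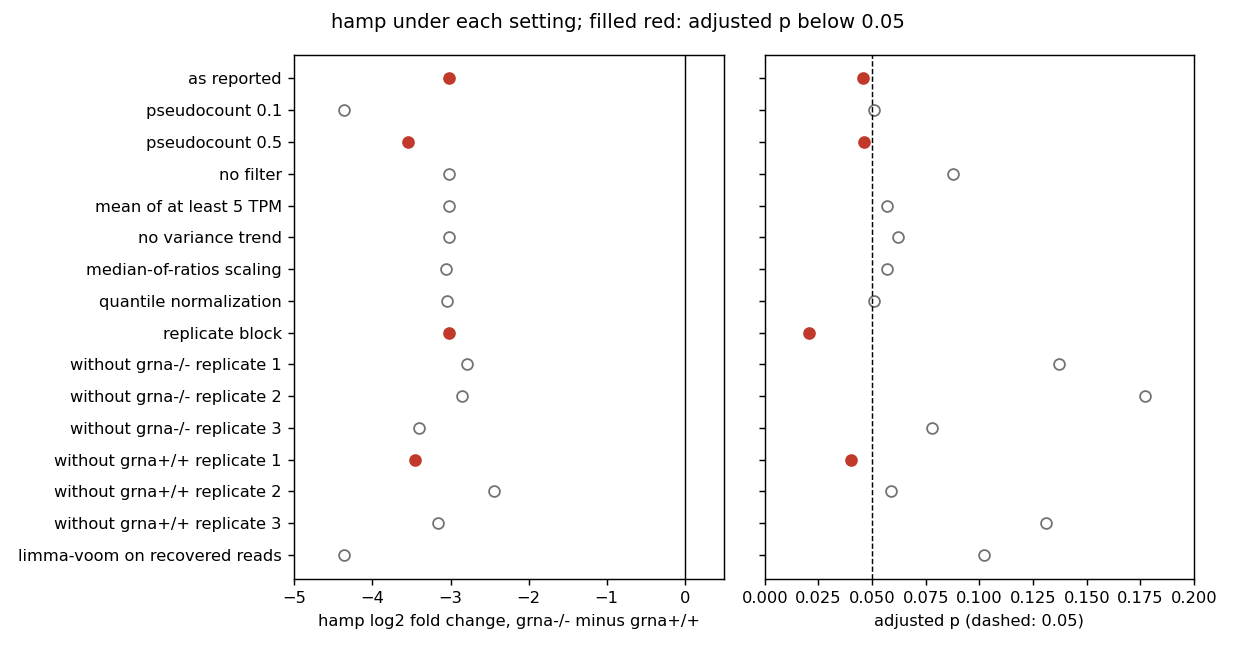
Log2 fold change of hamp (left panel) and its limma adjusted p (right panel) as reported and under 15 other settings, one per row; filled red points pass 0.05. The fold change stays between -4.36 and -2.44, while 3 of the 15 settings keep the call.

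Because hepcidin is known from hepatocytes, liver markers were read beside it. Of 16 hepatocyte genes with a row, 7 were tested and none was called, beside 1.15% of all genes tested. The log2 fold change was above 0 in 2 of the 7, beside 57.5% of all genes tested, with a median of -1.15. Of the 7, fgb and tfa passed the level filter through their grna+/+ values and apoa2 through its grna-/- values. The direction of these genes was thus partly set by the filter, and the count and median are a description only. Their summed level was 123.5 to 277.4 TPM in grna-/- marrows and 150.1 to 305 TPM in grna+/+ marrows, and most of it was rbp4, which is not restricted to liver. The liver fatty acid binding protein gene fabp10a was at 3.87, 1.95 and 4.25 TPM in grna-/- marrows, against 5.36, 16.28 and 11.46 TPM in grna+/+ marrows. The fibrinogen gene fgb was at 0.705, 0.829 and 0.256 TPM in grna-/- marrows, against 3.39, 30.79 and 1.29 TPM in grna+/+ marrows. Both genes had no overlap between the genotypes and were highest in grna+/+ replicate 2, the marrow with the most hamp. ahsg1 shared this pattern, at 2.20, 1.66 and 1.77 TPM in grna-/- marrows, against 3.51, 8.37 and 5.07 TPM in grna+/+ marrows. So did itih2 at a low level, with means of 0.159 TPM in grna-/- marrows and 0.545 TPM in grna+/+ marrows. The remaining hepatocyte genes did not. The prothrombin gene f2 was at 26.25, 35.15 and 18.01 TPM in grna-/- marrows, against 10.77, 16.21 and 13.55 TPM in grna+/+ marrows, higher in grna-/- without overlap. Of the 16 genes 6 were lower and 1 was higher in grna-/- without overlap, beside 24.6% of all genes tested. That share covers tested genes only, whereas fga and itih2, among the lower ones, were below the level filter. serpina1 was at 0 throughout, and ambp, fga, fgg and c9 stayed below 0.2 TPM in every library. fabp10a, fgb, ahsg1, itih2 and f2 were singled out with their values known, and the part of liver cells in the hamp result was not tested. In a bulk sample, fewer cells of a type and less RNA per cell cannot be told apart.

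Hepcidin transcription is driven by BMP signals through SMAD factors and by interleukin 6 through gp130 and STAT3. Of 33 listed genes for hepcidin and its control 29 had a row and 25 were tested. hamp fell and none rose, beside 1.15% of all genes called, and the median log2 fold change was 0.11. Of the 25 genes 7 (28.0%) were without overlap, 4 higher and 3 lower in grna-/-, close to the 24.6% of all genes. The gp130 gene il6st averaged 22.3 ± 0.453 TPM in grna-/- marrows and 38.5 ± 9.89 TPM in grna+/+ marrows (limma adjusted p = 0.135). stat3 averaged 44.5 ± 7.03 TPM in grna-/- marrows and 65.7 ± 9.43 TPM in grna+/+ marrows (adjusted p = 0.182). Neither gene overlapped between the genotypes, and neither passed. Fold changes of neutrophil markers lay below 0 beside them. Of 10 tested none had a fold change above 0, beside 57.5% of all genes tested. None was called, beside 1.15% of all genes tested, and the median log2 fold change was -0.49. Of 11 neutrophil markers with a row 3 were lower and none was higher in grna-/- without overlap, beside 24.6% of all genes tested. Their summed level overlapped, at 26531 to 48910 TPM in grna-/- marrows and 46542 to 56880 TPM in grna+/+ marrows, but without lyz, its most abundant gene, it did not, at 9611 to 16036 TPM in grna-/- marrows and 20096 to 23173 TPM in grna+/+ marrows. The part of neutrophils in the values of il6st, stat3 and other lower genes was not tested. il6 itself was at 2.45, 1.78 and 4.12 TPM in grna-/- marrows, against 2.36, 15.8 and 2.76 TPM in grna+/+ marrows. The one high il6 value was again in grna+/+ replicate 2. il6 was chosen with its values known, and its part in the hamp level was not tested.

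On the BMP side fold changes lay in both directions, and the genes without overlap were all higher in grna-/-. atoh8, a transcription factor tied to hepcidin expression in mice, averaged 1.86 ± 0.361 TPM in grna-/- marrows and 0.537 ± 0.249 TPM in grna+/+ marrows (limma adjusted p = 0.146). It passed the level filter through its grna-/- values, so its direction was partly set by the filter. The activin receptor gene acvr2aa averaged 16.98 ± 1.92 TPM in grna-/- marrows and 9.63 ± 3.63 TPM in grna+/+ marrows (adjusted p = 0.178). id1 averaged 64.1 ± 12.2 TPM in grna-/- marrows and 47.1 ± 5.01 TPM in grna+/+ marrows (adjusted p = 0.272). smad4a averaged 9.32 ± 0.347 TPM in grna-/- marrows and 7.14 ± 1.06 TPM in grna+/+ marrows (adjusted p = 0.341). These genes were higher in grna-/- without overlap and none passed. smad7 averaged 4.32 ± 1.56 TPM in grna-/- marrows and 6.84 ± 2.46 TPM in grna+/+ marrows (limma adjusted p = 0.353). smad9 averaged 1.44 ± 0.373 TPM in grna-/- marrows and 2.77 ± 1.51 TPM in grna+/+ marrows (adjusted p = 0.388). Both had the lower mean in grna-/- and overlapped. The ligand gene bmp6 was at 2.17 ± 0.594 TPM in grna-/- marrows and 2.59 ± 0.116 TPM in grna+/+ marrows and overlapped (adjusted p = 0.667). The hemojuvelin gene hjv, a BMP co-receptor, had at most 2 reads in any library and was not tested.

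The search for genes patterned like hamp left out provisional symbols, which hold a colon or start with LOC, im_ or wu_. Of the other genes tested, those most like hamp over the 6 libraries were dynlt3, hnrnpa0a, cers5, mid1ip1b and stk38a, as a description. Pearson's r of log2(TPM + 1) was 0.994 to 0.997 over 6 libraries that include the high grna+/+ replicate 2. Of these 5 genes mid1ip1b fell (log2 fold change -1.33, limma adjusted p = 0.0410). cers5 had an adjusted p of 0.0696, and the other 3 had larger values.

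slc40a1 encodes ferroportin, the iron exporter that hepcidin acts on at the protein level. It was at 76.69, 71.03 and 54.36 TPM in grna-/- marrows, against 53.85, 19.95 and 25.89 TPM in grna+/+ marrows. The groups stood apart by less than 1 TPM, because grna+/+ replicate 1 came close to grna-/- replicate 3. The mean was 67.4 ± 11.6 TPM in grna-/- marrows and 33.2 ± 18.1 TPM in grna+/+ marrows (SD, n = 3 each), with a log2 fold change of 1.11 (SE 0.336, 95% interval 0.336 to 1.88, limma adjusted p = 0.171). Without grna+/+ replicate 1 the log2 fold change was 1.51 and passed (adjusted p = 0.0401); without any other single library it did not pass. grna+/+ replicate 2 had the most hamp and the least slc40a1 of the 6 marrows. It also had the lowest summed level of erythroid markers, described below, at 25372 TPM against 49147 and 61416 TPM in the other grna+/+ marrows. A link between the hamp and slc40a1 levels was not tested.

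Macrophages and erythroid cells are the main ferroportin-bearing cells of blood-forming tissue. Summed over 13 macrophage markers the level was 2719 to 3538 TPM in grna-/- marrows and 2278 to 2672 TPM in grna+/+ marrows, without overlap. The separation came with cd74a, an invariant chain gene of MHC class II, which made up 38.7% to 63.9% of the sum in the 6 libraries. Without it the sums overlapped, at 1238 to 1831 TPM in grna-/- marrows and 1339 to 1411 TPM in grna+/+ marrows. Of 12 macrophage markers tested 7 had a fold change above 0, close to the 57.5% of all genes tested. None rose and stab2 fell, beside 0.660% of all genes tested called higher and 0.493% called lower. Of the 13 markers 2, cd74a and ctsc, were higher without overlap in grna-/-, and 1, stab2, was lower, beside 24.6% of all genes tested. Which cells the stab2 reads came from, macrophages or vessel cells, was not tested. Summed over 17 erythroid markers the level was 93843 to 113936 TPM in grna-/- marrows and 25372 to 61416 TPM in grna+/+ marrows. Of 16 erythroid markers tested all had a fold change above 0, beside 57.5% of all genes tested. In this list 5 rose, beside 0.660% of all genes tested: alas2, ank1a, epb41b, nt5c2l1 and sox6. These lists were written with earlier results of these marrows known, and the part of either cell type in the slc40a1 values was not tested.

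Ferroportin works with ferroxidases, copper enzymes that oxidize the exported iron so that transferrin can bind it. The hephaestin-like gene hephl1a was at 67.87, 58.22 and 75.69 TPM in grna-/- marrows, against 110, 123.2 and 147.1 TPM in grna+/+ marrows. It fell to 0.531 times the grna+/+ mean (log2 fold change -0.90, SE 0.165, limma adjusted p = 0.0497), with no overlap. The ceruloplasmin gene cp, a second ferroxidase, was at 0.801, 0.513 and 0.627 TPM in grna-/- marrows, against 2.24, 1.904 and 1.602 TPM in grna+/+ marrows, and did not pass (adjusted p = 0.148). Among the 3 tested genes of the export list, both ferroxidase genes thus lay below and the exporter gene above its grna+/+ values. All 3 were without overlap, beside 24.6% of all genes tested, but the list is short and heph and hephl1b had no row. cp held 22, 18 and 19 reads in grna-/- marrows and passed the level filter through its grna+/+ values. The hephl1a call was kept without grna+/+ replicate 1 (adjusted p = 0.0476) and lost without any other single library (adjusted p 0.0814 to 0.179).

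Iron bound to transferrin enters cells through transferrin receptors. tfr1a, the receptor that zebrafish erythroid cells need for hemoglobin, was at 111.3, 194.9 and 150.1 TPM in grna-/- marrows, against 79.31, 95.56 and 136.8 TPM in grna+/+ marrows. Its highest grna+/+ value lay between the grna-/- values, and in limma its log2 fold change was 0.55 (SE 0.256, 95% interval -0.0426 to 1.13, adjusted p = 0.313). The second copy, tfr1b, was at 168.8, 207.1 and 230.9 TPM in grna-/- marrows, against 241.8, 223.5 and 210.3 TPM in grna+/+ marrows. The log2 fold change of tfr1b was -0.16 (SE 0.148, 95% interval -0.503 to 0.176, adjusted p = 0.572). The copies together summed to 354 ± 65.2 TPM in grna-/- marrows and 329 ± 15.6 TPM in grna+/+ marrows. tfr1a made up 39.7%, 48.5% and 39.4% of that sum in grna-/- marrows, against 24.7%, 29.9% and 39.4% in grna+/+ marrows, so its share was as high in grna+/+ replicate 3 as in the lower grna-/- marrows. The erythroid marker sum, given above, did not overlap between the genotypes, and its part in the tfr1a level was not tested.

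With provisional symbols left out as for hamp, the genes most like tfr1a over the 6 libraries were atp5j2, rab7, dtymk, uros and glrx5. Pearson's r was 0.949 to 0.987, as a description. uros is an enzyme of heme synthesis and glrx5 serves iron-sulfur cluster formation; none of the 5 was called.

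tfr2, a receptor that senses iron-loaded transferrin in liver and erythroid cells of mammals, was at 6.18, 12.76 and 7.02 TPM in grna-/- marrows, against 4.70, 5.94 and 11.39 TPM in grna+/+ marrows. One marrow of each genotype stood above its group, and the ranges overlapped (adjusted p = 0.751). slc11a2 encodes the divalent metal transporter that moves iron out of the endosome. It was at 41.78, 49.52 and 61.27 TPM in grna-/- marrows, against 51.39, 48.36 and 53.31 TPM in grna+/+ marrows. Its means of 50.9 ± 9.81 TPM in grna-/- marrows and 51.0 ± 2.50 TPM in grna+/+ marrows were close, and the 95% interval of the log2 fold change was -0.415 to 0.374 (adjusted p = 0.958).

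Of 14 listed uptake genes 9 were tested and none was called, beside 1.15% of all genes. The median log2 fold change was 0.01, against 0.065 over all genes tested. Of the 9 genes 3 (33.3%) were without overlap, 1 higher and 2 lower in grna-/-, beside 24.6% of all genes tested. The transferrin gene tfa was at 0.219, 0 and 0.0496 TPM in grna-/- marrows, against 9.61, 0.781 and 3.23 TPM in grna+/+ marrows. Its grna-/- group held 5 reads and its grna+/+ group 294 reads, which is 1.77% per read counted (exact 95% interval 0.571% to 4.18%, counting error only), yet the spread among grna+/+ marrows was wide and it did not pass (limma adjusted p = 0.151). Like hamp, tfa passed the level filter through its grna+/+ values. The marrow with the most tfa was grna+/+ replicate 1, not the one with the most hamp. steap4, a ferrireductase gene, was at 9.12, 19.47 and 11.15 TPM in grna-/- marrows, against 20.58, 119 and 20.7 TPM in grna+/+ marrows, again with grna+/+ replicate 2 far above the rest (adjusted p = 0.274). scara5, a ferritin receptor in mice, averaged 1.999 ± 0.525 TPM in grna-/- marrows and 0.709 ± 0.522 TPM in grna+/+ marrows (adjusted p = 0.214). It passed the level filter through its grna-/- values.

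fth1a encodes the ferritin heavy chain, which oxidizes iron and stores it in the ferritin shell. It was at 2372, 3203 and 2662 TPM in grna-/- marrows, against 2159, 1934 and 2512 TPM in grna+/+ marrows. The highest grna+/+ value lay above the lowest grna-/- value, and the log2 fold change was 0.32 (SE 0.140, 95% interval -0.00694 to 0.638, limma adjusted p = 0.292). fth1a made up 70.1% to 79.8% of the summed level of 6 ferritin genes in grna-/- marrows and 67.0% to 76.1% in grna+/+ marrows. That sum was 3619 ± 447 TPM in grna-/- marrows and 3049 ± 221 TPM in grna+/+ marrows.

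Within the ferritin family 2 of the less abundant heavy-chain-like genes stood apart. fthl29 was at 23.22, 21.62 and 24.19 TPM in grna-/- marrows, against 11.41, 10.95 and 6.98 TPM in grna+/+ marrows, and it rose (log2 fold change 1.18, SE 0.209, limma adjusted p = 0.0457). fthl28 was at 80.12, 95.56 and 104.9 TPM in grna-/- marrows, against 29.59, 49.72 and 18.81 TPM in grna+/+ marrows; its log2 fold change of 1.58 did not pass (SE 0.313, adjusted p = 0.0607) and did pass with the replicate number as a block (adjusted p = 0.0330, where 2.52% of all genes were called). fthl27, the second most abundant ferritin gene, averaged 709 ± 178 TPM in grna-/- marrows and 760 ± 73.6 TPM in grna+/+ marrows and overlapped. These genes were found in the table through RefSeq synonyms, and as similar copies they can share reads, so their levels are uncertain. The fthl29 call was kept without grna+/+ replicate 1 (adjusted p = 0.0430) and lost without any other single library (adjusted p 0.0588 to 0.163).

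**Figure D3:**
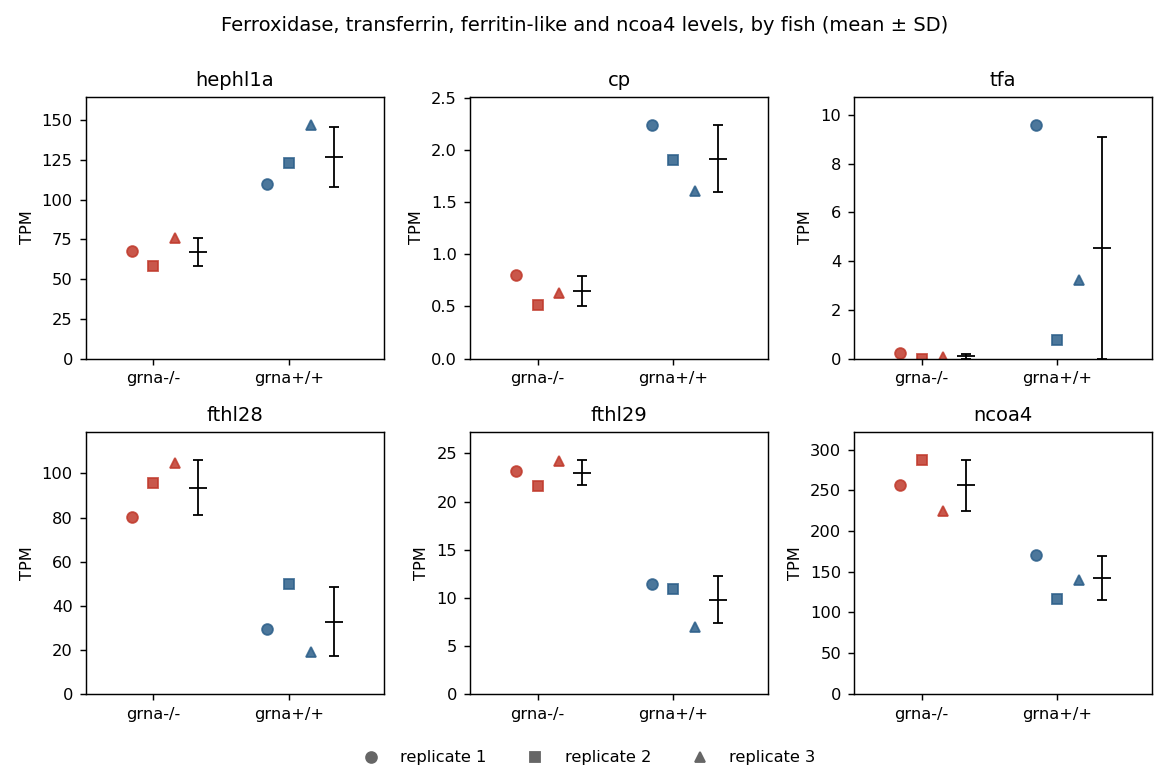
Levels in TPM of the ferroxidase genes hephl1a and cp, the transferrin gene tfa, the ferritin-like genes fthl28 and fthl29 and the ferritin receptor gene ncoa4 in each marrow, grna-/- left of grna+/+, with mean ± SD (n = 3). None of the 6 genes overlaps between the genotypes, and hephl1a and fthl29 passed the test. The 6 were picked from their lists as called genes or genes of smallest p, and 24.6% of all genes tested had no overlap.

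ncoa4, the cargo receptor that takes ferritin to the lysosome so that its iron can be used, was at 256.4, 287 and 224.9 TPM in grna-/- marrows, against 170.5, 116.6 and 140.3 TPM in grna+/+ marrows. The groups did not overlap, and the log2 fold change of 0.85 did not pass (SE 0.171, limma adjusted p = 0.0630). The iron chaperone gene pcbp2 averaged 155 ± 8.11 TPM in grna-/- marrows and 124 ± 4.93 TPM in grna+/+ marrows (adjusted p = 0.241). Of 13 listed storage genes 8 were tested: fthl29 rose and none fell, beside 1.15% of all genes called. The log2 fold change was above 0 in 7, beside 57.5% of all genes tested, with a median of 0.32. Of the 8 genes 4 were without overlap, all 4 of them higher in grna-/-, beside 24.6% of all genes tested.

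To set uptake against storage and export within a marrow, where library scaling cancels, levels were divided by that of tfr1a. fth1a stood at 21.32, 16.44 and 17.73 times tfr1a in grna-/- marrows, against 27.22, 20.24 and 18.37 times in grna+/+ marrows. slc40a1 stood at 0.689, 0.364 and 0.362 times tfr1a in grna-/- marrows, against 0.679, 0.209 and 0.189 times in grna+/+ marrows. Both ratios overlapped between the genotypes, with replicate 1 highest in each. Between fish of the same number, which may be pairs, the fth1a ratio was lower in grna-/- in 3 of 3. The slc40a1 ratio was higher in grna-/- in 3 of 3. Some margins were small: 17.73 against 18.37 for fth1a in number 3, and 0.689 against 0.679 for slc40a1 in number 1. No label states a pairing, so these counts are a description only. The mean log2 ratio in grna-/- minus that in grna+/+ was -0.23 for fth1a, where the SDs were 0.193 in grna-/- and 0.296 in grna+/+, and 0.59 for slc40a1, where they were 0.534 in grna-/- and 1.03 in grna+/+. For tfr1b over tfr1a the difference was -0.72 and for tfr2 over tfr1a -0.28. Between fish of the same number each of these ratios was lower in grna-/- in 2 of 3. No test was made of these ratios.

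**Figure D4:**
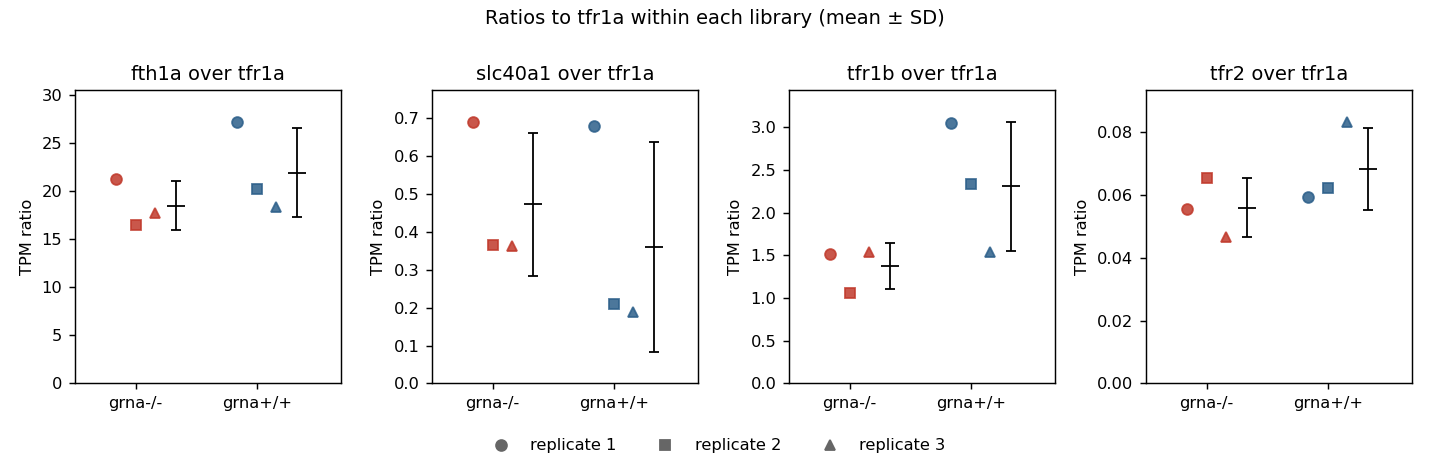
TPM of fth1a, slc40a1, tfr1b and tfr2 divided by TPM of tfr1a in the same library, grna-/- left of grna+/+, with mean ± SD (n = 3). The fth1a and slc40a1 ratios overlap between the genotypes, and the tfr1b ratio of grna+/+ replicate 3 lies level with the upper grna-/- values.

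hmox1a encodes heme oxygenase, which opens heme and frees its iron. It was at 171.7, 227.5 and 143.5 TPM in grna-/- marrows, against 166.2, 90.59 and 129.7 TPM in grna+/+ marrows. The ranges overlapped, and the log2 fold change was 0.50 (SE 0.249, 95% interval -0.0693 to 1.08, limma adjusted p = 0.330). The biliverdin reductases act on the product of heme oxygenase. blvra was at 33.57, 35.74 and 27.92 TPM in grna-/- marrows, against 19.53, 16.96 and 17.57 TPM in grna+/+ marrows, and did not pass (log2 fold change 0.81, adjusted p = 0.0649). blvrb averaged 322 ± 42.5 TPM in grna-/- marrows and 189 ± 69.0 TPM in grna+/+ marrows (adjusted p = 0.178). Both reductase genes were without overlap.

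Of 20 listed genes for heme breakdown and transport 10 were tested and none was called, beside 1.15% of all genes tested. The median log2 fold change was 0.49, against 0.065 over all genes tested. Of the 10 genes 3 (30.0%) were without overlap, 2 higher and 1 lower in grna-/-, close to the 24.6% of all genes. The lower one was flvcr1, a heme and choline transporter gene, with 5.06 ± 1.07 TPM in grna-/- marrows and 7.73 ± 0.972 TPM in grna+/+ marrows (adjusted p = 0.244). abcg2a, a homologue of a human porphyrin exporter, was at 40.97, 40.33 and 7.98 TPM in grna-/- marrows, against 16.37, 8.30 and 4.49 TPM in grna+/+ marrows. It overlapped and did not pass (adjusted p = 0.307), but passed with the replicate number as a block (adjusted p = 0.0489).

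Iron-responsive proteins act on ferritin and receptor messages. The table held aco1 and fbxl5 of the 3 listed genes. aco1, the iron regulatory protein that doubles as cytosolic aconitase, averaged 22.9 ± 4.84 TPM in grna-/- marrows and 23.4 ± 5.97 TPM in grna+/+ marrows. fbxl5, which marks the sister protein for breakdown when iron is high, averaged 25.2 ± 2.97 TPM in grna-/- marrows and 25.5 ± 3.77 TPM in grna+/+ marrows. Both overlapped, with log2 fold changes of -0.02 and -0.01 (adjusted p = 0.966 and 0.971).

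Inside mitochondria iron is built into heme and iron-sulfur clusters. Of 24 listed genes 19 were tested, 1 rose, none fell and the median log2 fold change was 0.26. iba57, a late factor of iron-sulfur cluster assembly, was at 27.09, 30.21 and 25.55 TPM in grna-/- marrows, against 14.72, 11.62 and 14.79 TPM in grna+/+ marrows, and rose (log2 fold change 0.96, SE 0.169, limma adjusted p = 0.0457). Its call was kept without grna+/+ replicate 1 (adjusted p = 0.0494) and lost without any other single library (adjusted p 0.0691 to 0.177). Its partner gene isca2 averaged 30.2 ± 1.59 TPM in grna-/- marrows and 19.1 ± 4.68 TPM in grna+/+ marrows (adjusted p = 0.161), and isca1 34.2 ± 8.13 TPM in grna-/- marrows and 22.5 ± 3.10 TPM in grna+/+ marrows (adjusted p = 0.226). The sulfur donor gene nfs1 averaged 31.0 ± 2.48 TPM in grna-/- marrows and 19.95 ± 3.12 TPM in grna+/+ marrows (adjusted p = 0.147). isca2, isca1 and nfs1 were without overlap and did not pass. abcb6a, a porphyrin transporter gene, overlapped (adjusted p = 0.234). The importers that bring iron into mitochondria overlapped, with slc25a37 at 8.57 ± 0.819 TPM in grna-/- marrows and 7.06 ± 1.73 TPM in grna+/+ marrows (adjusted p = 0.522) and slc25a28 at 41.3 ± 2.41 TPM in grna-/- marrows and 42.8 ± 7.72 TPM in grna+/+ marrows (adjusted p = 0.925).

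**Figure D5:**
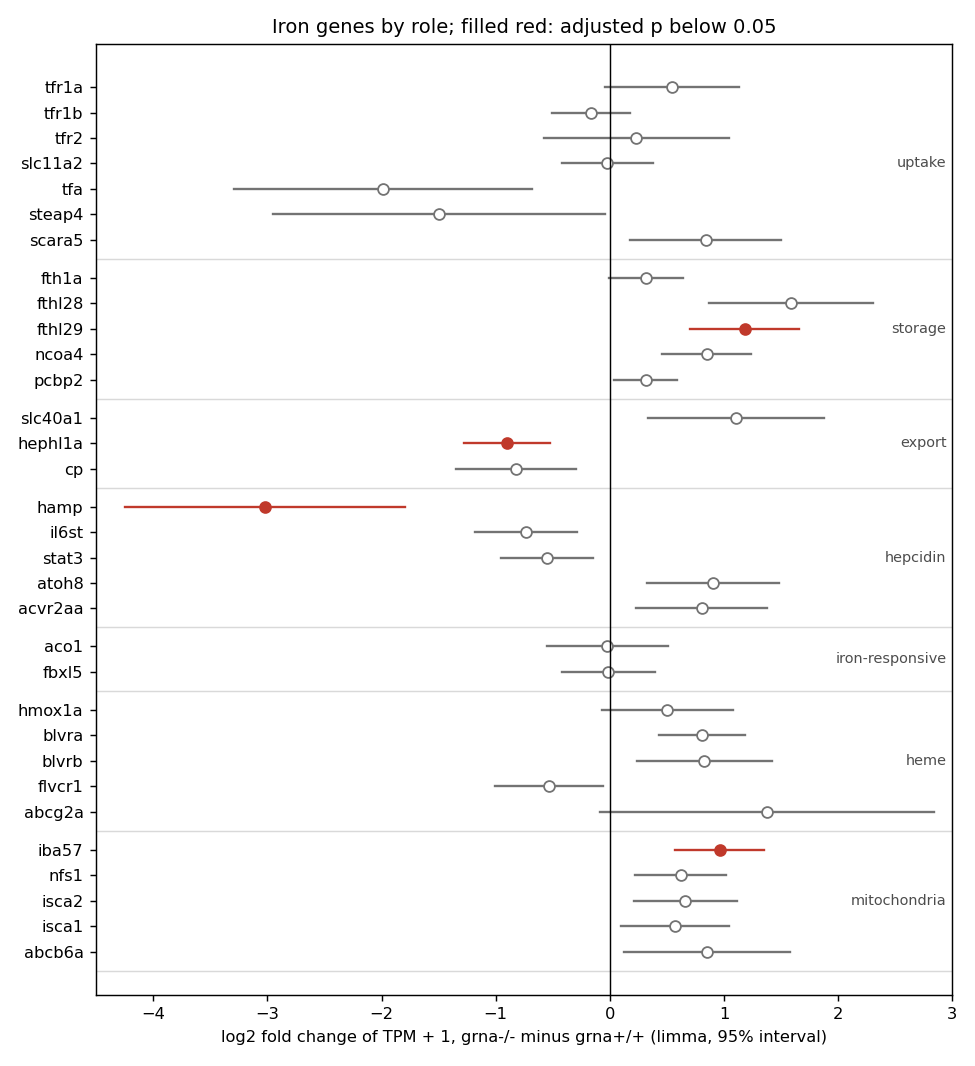
Log2 fold change of TPM + 1, grna-/- minus grna+/+, with its 95% interval from limma for the iron genes named by role; filled red points have an adjusted p below 0.05. hamp and hephl1a fell, fthl29 and iba57 rose, and the intervals of the transferrin receptors and of aco1 and fbxl5 include 0.

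Over all 7 role lists 84 genes had a row and 76 were tested; 2 rose and 2 fell, 5.26% beside 1.15% of all genes. The lists were written with earlier results of these data known, the call of hamp among them. hamp also passed the level filter through its grna+/+ values. The share called is therefore a description only. Without overlap were 27 of the 76 (35.5%), 18 higher and 9 lower in grna-/-, beside 24.6% of all genes tested. The median log2 fold change was 0.16. The 4 called genes, hamp, hephl1a, fthl29 and iba57, stand on different lists: hepcidin control, export, storage and mitochondrial iron.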

How the data were processed

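Deposited TPM per gene for 6 zebrafish kidney marrow libraries, 1 fish each, were used. The submitters' processing notes name featureCounts, Subread and DESeq2 1.26.0, and the builds GRCz10 and danRer10. The origin of the TPM values and the use of strand are not given in the sources. The last row, Total, is no gene; it was taken as the depth of each library and kept out of tests. Genotype and fish number came from the labels.

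limma 3.58.1 (R 4.3.3) was run on log2(TPM + 1) for genes with a mean of at least 1 TPM, with genotype alone and a variance trend, two-sided; a pseudocount of 1 understates changes of low genes. It was tested on simulated data in which only genes of many reads were changed, all with the same setting of spread. That test did not cover genes of few reads, such as hamp in grna-/- marrows. Fold changes are grna-/- minus grna+/+. Like hamp, the genes tfa, cp and fgb passed the level filter through their grna+/+ values, and atoh8, scara5 and apoa2 through their grna-/- values. Whole reads were recovered from the TPM ratios at a relative tolerance of 1e-09 and summed to 99.27% to 99.3% of the Total row; a factor shared by all libraries of a gene would not be seen. Same-numbered fish deviated together: the correlations of their deviations from the group means, across genes, were 0.136, 0.153 and 0.237, each above a preset bound of 0.1. No label states a pairing, and fish of different numbers were not compared in this way, so pairs are not established. The fish number was also fitted as a block.

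The members and lists were chosen with earlier results of these data known. Named genes are the 10 members, called genes of each role list with up to 4 others of smallest p, and grna. The 5 genes most like hamp and tfr1a, with provisional symbols left out, were also named. il6, bmp6, hjv, id1, smad4a, smad7, smad9, fthl27, bola3, marker genes, slc25a37 and slc25a28 were added with their values known. Symbols without a row were looked for among RefSeq synonyms (assembly GRCz12tu). The kidney tubule and vessel marker sums overlapped between the genotypes. Sums without the most abundant marker, and the hamp fold without each library, were added after seeing the data.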

Additional observations from a re-analysis of the deposited data

How the results depend on the processing

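The genes called numbered 44 without a level filter, 74 with a mean of at least 5 TPM, 76 without a variance trend, 271 with the replicate block and 71 with limma-voom on recovered reads, against 124 as reported; leaving out 1 library gave 16 (without grna+/+ replicate 3) to 204 (without grna+/+ replicate 1). hamp kept its direction under all 15 settings run and its call under 3: a pseudocount of 0.5, the replicate block (adjusted p = 0.0207) and without grna+/+ replicate 1. It lost the call with a pseudocount of 0.1 (log2 fold change -4.36, adjusted p = 0.0507), no filter (-3.02, 0.0879), a mean of at least 5 TPM (-3.02, 0.0569), no variance trend (-3.02, 0.0620), median-of-ratios scaling (-3.06, 0.0570), quantile normalization (-3.05, 0.0508) and limma-voom (-4.36, 0.102), and the members called were then 0; without 1 library the log2 fold change was -3.45 to -2.44 and the members called 0 to 2. The cause was not tested. fthl29 kept its call under 7, iba57 under 6 and hephl1a under 2 of the 15 settings, all with their direction kept. The direction turned for slc11a2 with quantile normalization (0.0144), limma-voom (0.0142) and without grna-/- replicate 1 or grna+/+ replicate 3 (-0.161 to 0.11 over the libraries left out), and for tfr2 without grna-/- replicate 2 or grna+/+ replicate 1 (-0.0554 to 0.557). The replicate block changed no call of the genes named by role other than fthl28 and abcg2a. limma-voom was chosen after seeing the data, in place of the planned edgeR test on recovered reads, which was not run because the table holds TPM. Depth limits hamp and tfa in grna-/- marrows, where single libraries held 0 to 11 reads.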
